A study of Mus musculus with 9 samples.

Results

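Neutrophils are short-lived white cells of the bone marrow that enter injured tissue and kill microbes with stored granule proteins. The expression of 10 mouse genes used as neutrophil markers, of 22173 genes measured, was read from polyA RNA sequencing in a study of blocked bile flow. The members were the rows whose symbol is S100a8, S100a9, Mpo, Elane, Ngp, Camp, Ltf, Retnlg, Cxcr2 or Ly6g. All 10 were present, and all 9 libraries were used. The libraries carry the label cholangiocyte, the epithelial cell of the bile duct, and come from 3 groups of mice with 3 libraries each. The first group had sham surgery, the second had its bile duct tied off (bile duct ligation, BDL), and the third had the ligation and received senkyunolide A, a phthalide of medicinal umbellifers (BDL-SenA). The series title places the study in cholestatic liver injury. For strain, sex, age, dose, duration and the method of cell isolation, the sources used here give nothing. Whether each library is a separate animal is not stated in the labels, and each p-value therefore measures the spread among these libraries, some of which may be technical.

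A neutrophil makes its granule proteins in sequence. The azurophil granules, with myeloperoxidase and elastase, are filled in the promyelocyte, and the specific granules, with lactoferrin, cathelicidin and neutrophilic granule protein, in the myelocyte. These transcripts are largely gone from the mature blood cell, whereas S100a8, S100a9, Cxcr2 and Retnlg are transcribed late and stay high in it. C/EBP and PU.1 transcription factors are known to act on many of these genes in the marrow. In the obstructed liver, neutrophils gather around injured hepatocytes and bile ducts.

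The promoters of 6 members are shown because these genes were the most abundant of each kind or differed most between libraries. Each runs from 250 bases before to 50 bases after the RefSeq start site on GRCm38.p6, read 5′ to 3′ on the gene's own strand. All 10 members matched the RefSeq promoter table. Capitals mark matches on either strand to TTGNNNAA, a C/EBP-like motif, or to GAGGAA, a PU.1-like motif, and the motifs do not overlap each other in these promoters.
S100a8, chr3:90668821-90669120, plus strand: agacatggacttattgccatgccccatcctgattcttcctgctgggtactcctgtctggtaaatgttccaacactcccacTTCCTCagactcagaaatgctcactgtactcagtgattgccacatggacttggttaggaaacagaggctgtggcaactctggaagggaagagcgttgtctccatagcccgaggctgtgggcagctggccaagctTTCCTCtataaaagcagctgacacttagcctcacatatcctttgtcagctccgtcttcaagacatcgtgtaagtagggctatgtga
S100a9, chr3:90695672-90695971, minus strand: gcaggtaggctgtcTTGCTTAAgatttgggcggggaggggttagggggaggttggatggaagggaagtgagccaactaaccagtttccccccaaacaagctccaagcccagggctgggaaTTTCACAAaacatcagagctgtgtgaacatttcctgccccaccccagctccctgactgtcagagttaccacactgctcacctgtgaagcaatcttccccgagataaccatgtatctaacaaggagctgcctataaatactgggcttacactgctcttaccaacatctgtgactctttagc
Ngp, chr9:110419558-110419857, plus strand: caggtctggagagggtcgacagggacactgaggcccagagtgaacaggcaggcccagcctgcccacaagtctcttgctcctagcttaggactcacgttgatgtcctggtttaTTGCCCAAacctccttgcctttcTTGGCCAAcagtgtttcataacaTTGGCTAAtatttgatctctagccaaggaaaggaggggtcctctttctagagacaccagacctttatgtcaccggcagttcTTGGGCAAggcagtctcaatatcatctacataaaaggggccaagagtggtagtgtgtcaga
Camp, chr9:109849407-109849706, minus strand: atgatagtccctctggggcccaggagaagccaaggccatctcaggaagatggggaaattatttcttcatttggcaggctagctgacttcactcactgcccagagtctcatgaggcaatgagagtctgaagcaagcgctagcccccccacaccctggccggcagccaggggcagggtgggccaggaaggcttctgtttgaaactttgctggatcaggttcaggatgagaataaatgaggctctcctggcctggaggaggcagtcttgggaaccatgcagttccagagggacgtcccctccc
Ltf, chr9:111019042-111019341, plus strand: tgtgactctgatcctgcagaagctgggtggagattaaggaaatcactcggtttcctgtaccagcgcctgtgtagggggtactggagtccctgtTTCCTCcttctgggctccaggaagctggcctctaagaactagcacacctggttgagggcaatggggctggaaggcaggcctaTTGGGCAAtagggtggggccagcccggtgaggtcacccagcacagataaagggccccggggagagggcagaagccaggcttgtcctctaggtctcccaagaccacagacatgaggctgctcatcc
Retnlg, chr16:48872358-48872657, plus strand: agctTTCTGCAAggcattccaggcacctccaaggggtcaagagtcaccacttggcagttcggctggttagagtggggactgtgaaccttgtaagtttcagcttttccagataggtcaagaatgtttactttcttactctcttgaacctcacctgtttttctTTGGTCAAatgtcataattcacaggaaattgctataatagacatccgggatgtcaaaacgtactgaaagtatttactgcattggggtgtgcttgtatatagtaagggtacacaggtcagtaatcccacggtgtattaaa
The C/EBP-like letters were found in 6 of 10 members and in 36.9% of all 27025 RefSeq promoters of this length. The PU.1-like letters were found in 6 of 10 members and in 28.3% of all promoters. Ngp held the C/EBP-like letters at 4 positions, 138, 115, 92 and 11 bases before its start site. Retnlg and S100a9 each held them at 2 positions, Ltf at 1, and neither motif was found in the Camp window. A match is a description of the letters and not evidence of a bound factor.

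All values are FPKM as the authors deposited them, that is, fragments divided by transcript length in kilobases and by library size. The steps between low values gave back whole fragments for every member, so each value is given with the fragments behind it. These are the smallest whole numbers that fit the values, and any factor common to all libraries would multiply them. Estimated depth was 27.4 to 33.9 M (mega) fragments per library. The libraries were dominated by hepatocyte transcripts: Alb, the plasma protein albumin, which was chosen after its values were seen, ranked first in 8 libraries and second in BDL-SenA library 2. The summed FPKM of 16 hepatocyte markers was 68970 to 91540 in sham, against 24.2 to 39.2 for 12 biliary markers. BDL-SenA library 1, lay far from its group: on the first principal component it lay at -16.9, with the other two at 26.7 and 40.0, sham at -49.6 to -37.5 and BDL at 14.7 to 40.1. In such bulk RNA, more cells of a type and more RNA per cell cannot be told apart.

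Calprotectin is the heterodimer of S100A8 and S100A9, calcium-binding proteins that fill the neutrophil cytosol, bind zinc and manganese and act on Toll-like receptor 4. Both genes lie on chromosome 3 of GRCm38, S100a8 at positions 90669071 to 90670034 and S100a9 at 90692630 to 90695721, with a gap of 22.6 kb. S100a8 stood at 0.661, 3.66 and 1.68 FPKM in the sham libraries (8, 41 and 18 fragments). It stood at 14.8, 27.4 and 26.0 FPKM in BDL (196, 346 and 325 fragments) and at 7.80, 47.0 and 47.2 FPKM in BDL-SenA (94, 608 and 602 fragments). Every ligated library lay above every sham library, and the library of the third group that stood apart was the lowest ligated one. S100a9 stood at 1.61, 2.40 and 2.52 FPKM in sham (26, 36 and 36 fragments). It stood at 16.5, 17.7 and 34.0 FPKM in BDL (292, 298 and 567 fragments) and at 8.32, 48.5 and 38.6 FPKM in BDL-SenA (134, 838 and 658 fragments). The order of groups was that of S100a8.

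**Figure D1:**
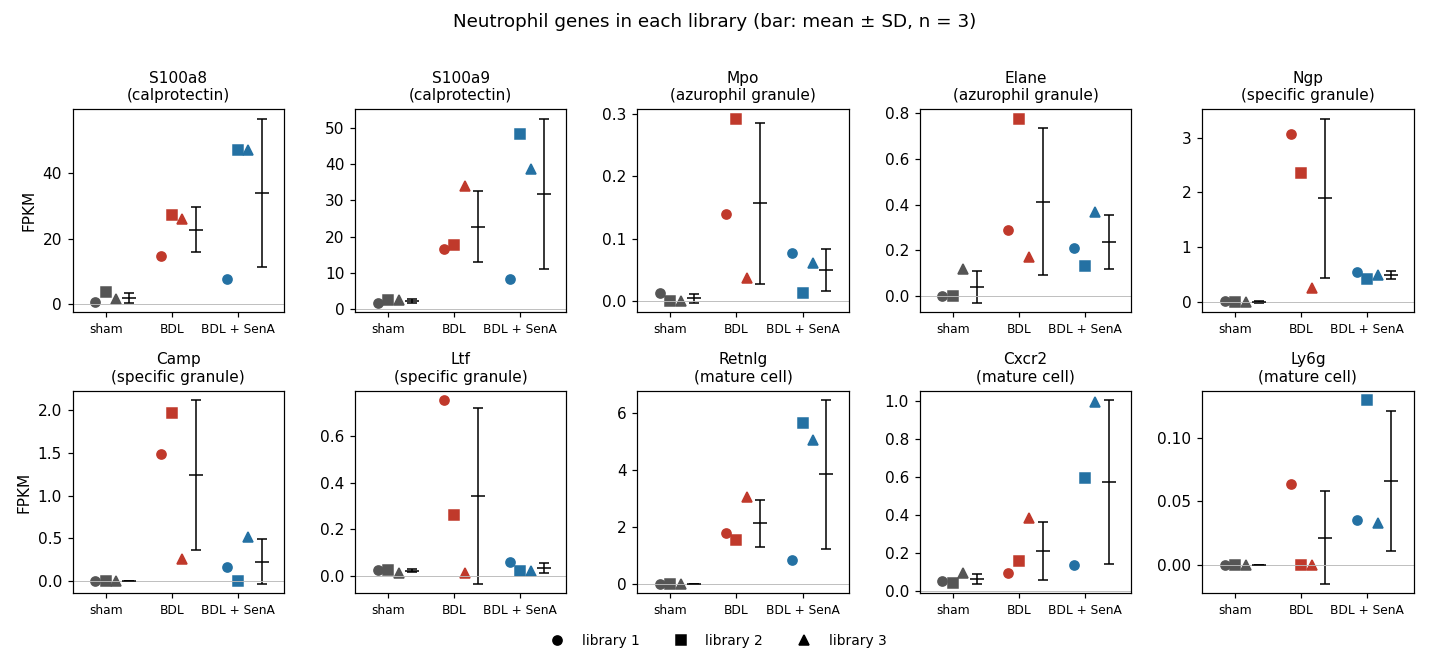
FPKM of each of the 10 neutrophil genes (vertical axis, linear, own scale per panel) in the 3 libraries of each group, with mean ± SD (n = 3). In S100a8, S100a9, Retnlg and Cxcr2, BDL-SenA libraries 2 and 3 are highest, and in Ngp, Camp and Ltf, BDL libraries 1 and 2 are highest or second highest.

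Both subunits were higher in BDL than in sham. On log2(FPKM + 1), S100a8 was higher by 3.06 ± 0.60 (SE, limma adjusted p = 0.0138) and S100a9 by 2.84 ± 0.52 (limma adjusted p = 0.0112). BDL-SenA against sham gave 3.31 for S100a8 and 3.06 for S100a9 (limma adjusted p = 0.0314 for each). That comparison shares its sham libraries with the first. No difference between BDL-SenA and BDL passed the test: the log2 difference was 0.25 for S100a8 (95% interval -1.07 to 1.56, limma adjusted p = 0.851) and 0.23 for S100a9 (-0.93 to 1.38, limma adjusted p = 0.844). The intervals hold differences of more than 1 log2 unit, so they do not show that the groups were alike. BDL-SenA library 1 was also left out, a choice made after its values were seen. It was the lowest ligated library for S100a8, S100a9 and Retnlg, so leaving it out had to raise their changes. Without it, the log2 changes against sham were 4.13 for S100a8 (limma adjusted p = 7.19e-05), 3.81 for S100a9 (3.00e-05) and 2.66 for Retnlg (3.17e-05). Without it the differences from BDL were 1.07 for S100a8 (limma adjusted p = 0.146) and 0.97 for S100a9 (limma adjusted p = 0.114). Across the 9 fits that each left out a library, the calls in BDL-SenA against sham held in 4 for each of these 3 genes. The limma adjusted p in that comparison reached 0.1595 for S100a8 and Retnlg and 0.138 for S100a9. In BDL against sham the calls held in 9 of the 9 fits for S100a9, in 7 for S100a8 and in 3 for Retnlg. Of the 10 members, 3 passed the mean level of 1 FPKM that the test required, and all 3 were called higher in BDL, where 8.12% of the 9884 genes tested were called higher. The third, Retnlg, passed the filter only through the ligated groups, whereas S100a8 and S100a9 had sham means of 2.001 and 2.175 FPKM. The count fell to 1, S100a9, without sham library 3 or without BDL library 2. In BDL-SenA against sham the same 3 members were called higher, against 1.76% of all genes tested. That count was 0 when any 1 of the sham libraries, BDL-SenA library 2 or BDL-SenA library 3 was left out, and also when the fit held only the 2 groups or no filter.

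The ratio of the subunits did not differ between the groups beyond the spread. S100a9 over S100a8 was 2.43, 0.657 and 1.5 in sham, 1.11, 0.644 and 1.31 in BDL, and 1.07, 1.03 and 0.818 in BDL-SenA. The transcript length behind S100a8 may differ from its annotated exon length: with that length, its steps gave a depth of 17.4 M fragments, against 31.0 M for S100a9. The level of this ratio is therefore uncertain by a constant factor, which cancels between groups but for the number added. The log2 ratio, computed with 1 added to each FPKM, was lower in BDL than in sham by a difference of -0.23 (exact two-sided permutation test, p = 0.5). It differed by -0.02 between BDL-SenA and BDL (exact permutation p = 0.9) and by -0.25 between BDL-SenA and sham (exact permutation p = 0.5). With 3 libraries against 3 the smallest p such a test can give is 0.1.

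Retnlg, resistin-like gamma, is a secreted cysteine-rich protein whose transcript marks mature mouse neutrophils. It lies on chromosome 16 of GRCm38 at 48872608 to 48874498. It was listed at 0 in all 3 sham libraries and the folds below are taken against a floor of 3 fragments over the group. In BDL it stood at 1.801, 1.533 and 3.049 FPKM (37, 30 and 59 fragments), and in BDL-SenA at 0.856, 5.63 and 5.06 FPKM (16, 113 and 100 fragments). No ligated library was at 0. The pooled fragments, scaled for depth, were 37.3 times this floor in BDL and 68.8 times in BDL-SenA. The floor is a set number, so these folds are not lower bounds. On log2(FPKM + 1) the change was 1.61 ± 0.40 (SE, limma adjusted p = 0.0297) in BDL and 2.07 (limma adjusted p = 0.0360) in BDL-SenA. Since sham was at 0, Retnlg passed the filter only through the ligated groups. Its call in BDL held in 3 of 9 fits that each left out a library, and was lost with quantile normalization (limma adjusted p = 0.0525) and with no filter (limma adjusted p = 0.0949). The difference between the ligated groups was 0.46 (95% interval -0.43 to 1.34, limma adjusted p = 0.586). Without the library that stood apart, left out after its values were seen, the difference was 1.05 (limma adjusted p = 0.0625).

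Cxcr2, the receptor through which neutrophils follow CXC chemokines, lies on chromosome 1 of GRCm38 at 74153994 to 74161246. It stood at 0.0519, 0.0449 and 0.0938 FPKM in sham (5, 4 and 8 fragments). It stood at 0.0948, 0.159 and 0.383 FPKM in BDL (10, 16 and 38 fragments) and at 0.136, 0.592 and 0.995 FPKM in BDL-SenA (13, 61 and 101 fragments). The sham libraries lay below all ligated ones. BDL library 1 was only just above the highest sham library. The pooled fragments, scaled for depth, were 3.34 times sham in BDL (95% counting interval 1.93 to 6.08). They were 2.78 times BDL in BDL-SenA (2.08 to 3.76), while the exact permutation test over libraries gave p = 0.3. Counting intervals cover counting error only and not the spread between libraries.

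Ly6g is the surface protein that most antibodies for mouse neutrophils recognise, on chromosome 15 of GRCm38 at 75155261 to 75159128. It was at or near 0: no fragment in sham, 2 fragments in BDL, all in library 1, and 1, 4 and 1 fragments in BDL-SenA. A single fragment is worth 0.0316 to 0.0391 FPKM for Ly6g. Reads of Ly6 family copies can be split or lost in counting, so its level is uncertain. No difference in Ly6g was detectable at this depth between BDL and sham. BDL-SenA lay above sham without overlap, with 6 fragments against 0 (exact permutation p = 0.1, the smallest possible). Scaled for depth, its fragments were 1.8 times a floor of 3 sham fragments, which is a set number and not a bound.

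The azurophil granule genes Mpo and Elane were scarce in every library. Myeloperoxidase (Mpo) makes hypochlorous acid, and neutrophil elastase (Elane) is a serine protease that cleaves matrix and microbial proteins. Mpo lies on chromosome 11 of GRCm38 at 87793784 to 87804412 and Elane on chromosome 10 at 79886312 to 79888216. Mpo gave 1, 0 and 0 fragments in sham, 12, 24 and 3 in BDL and 6, 1 and 5 in BDL-SenA, and its highest level was 0.293 FPKM in BDL library 2. Elane gave 0, 0 and 3 fragments in sham, 9, 23 and 5 in BDL and 6, 4 and 11 in BDL-SenA, and its highest level was 0.777 FPKM in BDL library 2. Both were above every sham library in all BDL libraries. The pooled ratio of BDL to sham was 34.6 for Mpo (5.86 to 1400) and 10.9 for Elane (3.46 to 55.5), with counting intervals widened by the few sham fragments. The exact permutation test gave p = 0.1 for each, the smallest value possible.

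The specific granule genes lie together on chromosome 9 of GRCm38. Camp, the cathelicidin antimicrobial peptide, is at 109847377 to 109849456. Ngp, a cystatin-related granule protein, is at 110419808 to 110423012, and Ltf, the iron-binding lactoferrin, is at 111019292 to 111042766. The gaps are 570.0 kb and 596.0 kb. Ngp stood at 0.0279, 0 and 0 FPKM in sham (1 fragment in all), at 3.06, 2.35 and 0.271 in BDL (120, 88 and 10 fragments) and at 0.561, 0.418 and 0.503 in BDL-SenA (20, 16 and 19 fragments). BDL libraries 1 and 2 were high, and BDL library 3 lay below all 3 libraries that also had senkyunolide A. Camp was listed at 0 in all sham libraries, at 1.48, 1.97 and 0.262 FPKM in BDL (30, 38 and 5 fragments) and at 0.163, 0 and 0.513 FPKM in BDL-SenA (3, 0 and 10 fragments). Ltf stood at 0.0236, 0.0255 and 0.0134 FPKM in sham, at 0.756, 0.261 and 0.0115 FPKM in BDL (70, 23 and 1 fragments) and at 0.0593, 0.0221 and 0.0224 FPKM in BDL-SenA (5, 2 and 2 fragments). For Ltf, BDL library 3, with its 1 fragment, was at the level of sham.

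Against sham, pooled fragments in BDL were 193 times as high for Ngp (95% counting interval 34.4 to 7670) and 16.7 times for Ltf (6.90 to 52.6). Camp had none in sham, and its BDL fragments were 21.6 times a set floor of 3 sham fragments, scaled for depth. BDL-SenA had 0.256 times the pooled Ngp fragments of BDL (0.187 to 0.346), 0.181 times for Camp (0.0920 to 0.329) and 0.0973 times for Ltf (0.0432 to 0.193). The ratio was 0.313 for Mpo (0.149 to 0.610) and 0.577 for Elane (0.321 to 1.01), whose counting interval included 1. BDL libraries 1 and 2 held most of the BDL fragments of each. The 2 ligated groups overlapped in every one of these genes. The exact permutation tests over libraries gave p = 0.4 for Ngp, 0.2 for Camp, 0.4 for Ltf, 0.3 for Mpo and 0.6 for Elane. With 3 libraries against 3 these tests could not pass 0.05, and the counting intervals leave out the spread between libraries.

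**Figure D2:**
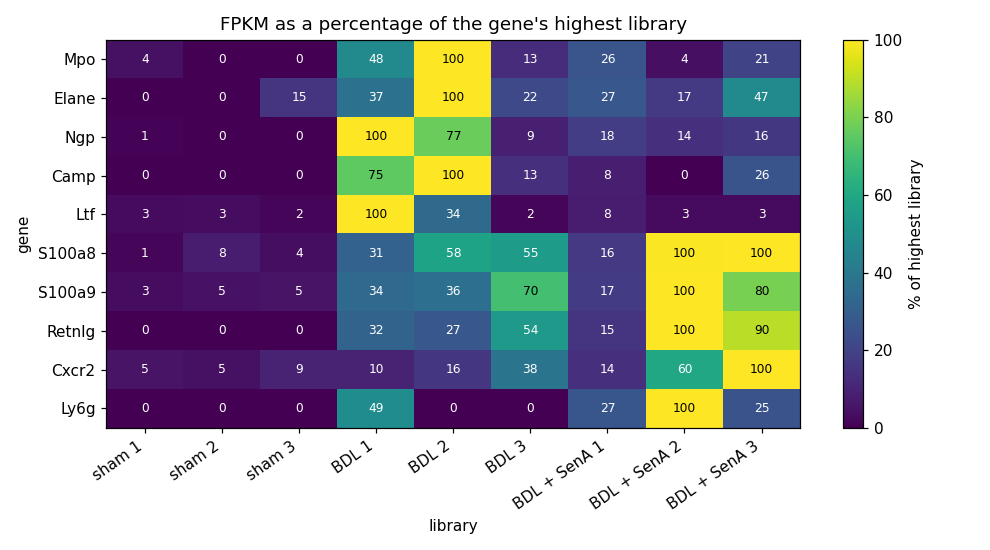
Each gene's FPKM in each library (columns) as a percentage of its highest library (rows are the 10 genes; colour and numbers show the percentage). The granule genes Mpo, Elane, Ngp, Camp and Ltf peak in BDL library 1 or 2, with Elane second highest in BDL-SenA library 3. S100a8, S100a9, Retnlg and Cxcr2 peak in BDL-SenA library 2 or 3.

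Apart from Ly6g, with 8 fragments over all libraries, the members thus fell into 2 patterns among the ligated libraries. These are described here after their values were seen and without a test. Mpo, Elane, Ngp, Camp and Ltf were each lower in BDL library 3 than in BDL libraries 1 and 2, with Ngp 11.3 and 8.70 times as high in those libraries. For Elane the gap was within counting error against BDL library 1. It had 9 fragments there (95% counting interval 4.12 to 17.1) and 5 in BDL library 3 (1.62 to 11.7). S100a9, Retnlg and Cxcr2 were each higher in BDL library 3 than in the other BDL libraries, and S100a8 lay between them. Ngp relative to Retnlg shows the contrast within a library, where scaling cancels. The FPKM ratio was 1.70 (95% counting interval 1.17 to 2.53), 1.54 (1.01 to 2.42) and 0.0888 (0.0405 to 0.175) in BDL libraries 1 to 3. It was 0.655 (0.322 to 1.35), 0.0742 (0.0410 to 0.126) and 0.0995 (0.0575 to 0.164) in BDL-SenA libraries 1 to 3. BDL library 3 thus had a ratio like that of BDL-SenA libraries 2 and 3, and the other 3 ligated libraries had higher ones.

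**Figure D3:**
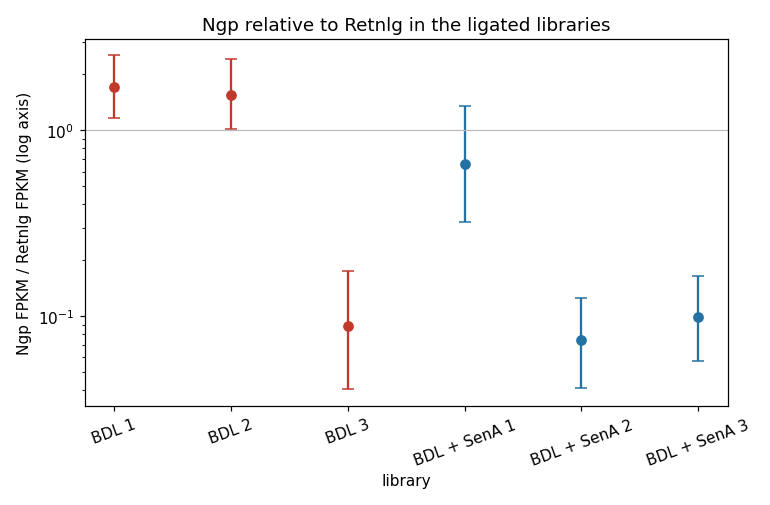
Ratio of Ngp FPKM to Retnlg FPKM (vertical axis, log scale) in each of the 6 ligated libraries, with 95% counting intervals as bars. BDL libraries 1 and 2 lie above 1, and BDL library 3 and BDL-SenA libraries 2 and 3 lie at or below 0.0995.

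Over all members, the groups did not overlap, with BDL higher, in 8 of 10 genes, against 18.7% of the 16802 genes above 0 in any library. Ltf and Ly6g were the exceptions. BDL-SenA lay above sham without overlap in 7 of 10 members, against 14.9% of those genes, and the 7 include Ly6g with its 6 fragments. Between the ligated groups no member was without overlap, against 3.07% of genes with BDL-SenA higher and 10.8% lower. In that comparison limma called 0 of the 3 members tested, with 0 genes (0.0%) called higher and 1 gene (0.0101%) called lower among all 9884. At an unadjusted p under 0.05 it had 1212 genes.

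To place all 10 genes on 1 scale, the test was repeated without the filter on level and with 0.1 added to each FPKM, a setting chosen after seeing the data. In BDL against sham it called 5 members higher, against 3.55% of 16802 genes. The log2 changes were 4.42 for Retnlg, 3.71 for Ngp, 3.68 for S100a8, 3.40 for Camp and 3.27 for S100a9. The sizes and order of Retnlg, Ngp and Camp depend on the number added, since these genes had 1 fragment or none in sham: with 1 added and no filter, Ngp gave 1.36 and Camp 1.07. It called no member in BDL-SenA against sham, where 0.0179% of genes were called higher, nor in BDL-SenA against BDL, where 0.0% were called higher and 0.00595% lower. The smallest unadjusted p between the ligated groups was that of Camp, with a log2 difference of -2.07 (unadjusted p = 0.0231, limma adjusted p = 0.505).

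**Figure D4:**
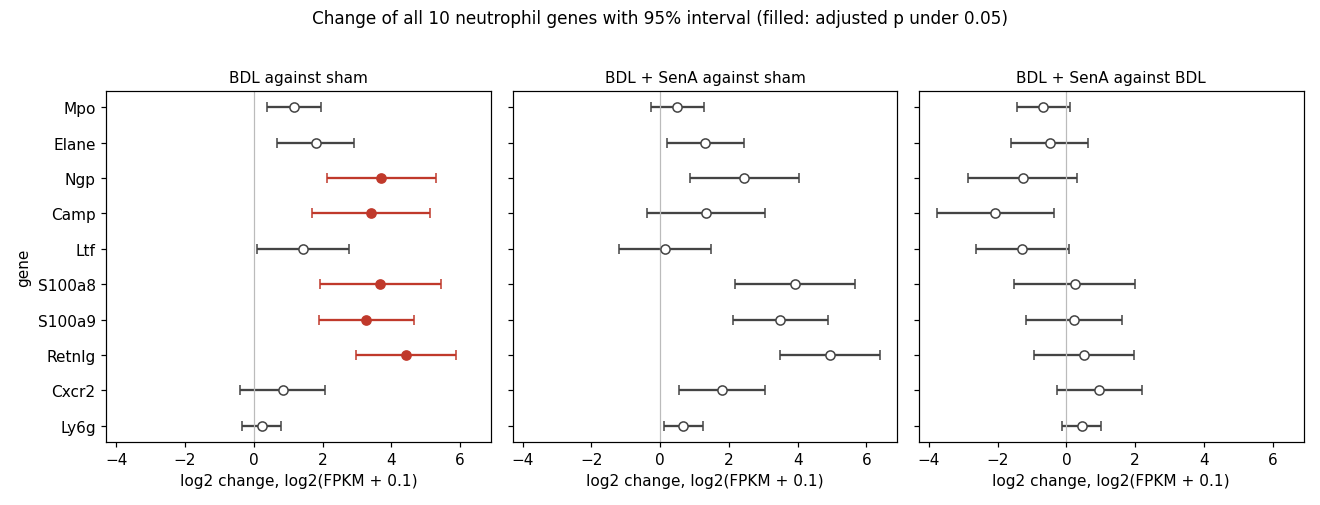
Log2 change of each neutrophil gene on log2(FPKM + 0.1) (horizontal axis) with its 95% interval, for the 3 comparisons in 3 panels; filled red points had an adjusted p under 0.05. In BDL against sham 5 genes are filled, and in the other panels none is.

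The other genes of the neutrophil lineage gave a mixed picture. Of 30 such genes 10 were tested, and 2 were called higher in BDL and 2 in BDL-SenA against sham, Lcn2 and Prtn3 in each case, where 8.12% and 1.76% of all genes tested were called higher. Lcn2, lipocalin 2, binds bacterial siderophores and is also made by hepatocytes under inflammatory signals. It stood at 2.85, 14.7 and 5.19 FPKM in sham, 1583, 1411 and 554 in BDL and 169, 5902 and 8086 in BDL-SenA. Its log2 change was 7.22 ± 1.18 (SE, limma adjusted p = 0.00676) in BDL and 8.12 (limma adjusted p = 0.0170) in BDL-SenA. Prtn3, proteinase 3, is an azurophil granule protease whose gene lies 3.14 kb from Elane. It stood at 0.2998, 0.7562 and 0.6026 FPKM in sham, 15.7, 26.5 and 6.43 in BDL and 3.78, 38.0 and 33.8 in BDL-SenA, and its log2 change was 3.29 ± 0.70 (SE, limma adjusted p = 0.0176) in BDL. Prtn3 FPKM exceeded Elane FPKM 34.1 to 54.1 times in BDL and 17.8, 288 and 92.1 times in BDL-SenA libraries 1 to 3. Prtn3 passed the filter on level only through the ligated groups, and its call in BDL-SenA against sham held in 8 of 17 alternatives. Prtn3 and Elane did not keep a fixed ratio across libraries.

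The chitinase-like Chil3 gave a log2 change of 2.82 (limma adjusted p = 0.0609) and the C-type lectin Clec4d 1.01 (limma adjusted p = 0.0801), both outside the threshold in BDL against sham. Of the 22 other lineage genes with at least 30 fragments, 17 were highest in BDL-SenA library 2 or 3, 2 in a BDL library and 3 in a sham library. The share of all genes that were highest in these libraries was not computed, so this count cannot be read as a trait of neutrophil genes. The azurophil granule gene Prtn3 was among the 17, as were Lcn2 and Chil3. Unlike Mpo and Elane, Prtn3 was thus highest in BDL-SenA, at library 2. Like them, it was lowest in library 3 among the BDL libraries. The 2 patterns of the members therefore did not extend to all granule genes. Csf3r, the receptor for granulocyte colony-stimulating factor, which was chosen after its values were seen, was at 0.292 to 0.605 FPKM in sham, 1.31 to 2.06 in BDL and 0.560, 2.67 and 3.01 in BDL-SenA. Its log2 change in BDL was 0.89 (limma adjusted p = 0.0891).

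Genes that act on neutrophils or on their products were read beside them. Of 16 chemoattractants, cytokines and adhesion molecules, 8 were tested and 2 were called higher in BDL, the CXCR2 ligand Cxcl1 with a log2 change of 2.96 (limma adjusted p = 0.0350) and the adhesion molecule Icam1 with 1.88 (limma adjusted p = 0.0128). The call in BDL held in 9 of 17 alternatives for Cxcl1 and in 14 of 17 for Icam1. The same 2 genes were called higher in BDL-SenA against sham, a call that held in 8 of 17 alternatives for Cxcl1 and in 4 of 17 for Icam1. Of all genes tested, 8.12% were called higher in BDL and 1.76% in BDL-SenA against sham. Cxcl1 stood at 4.27, 3.23 and 0.767 FPKM in sham, 27.8, 26.2 and 22.7 in BDL and 9.85, 138 and 109 in BDL-SenA. Cxcl5, a CXCR2 ligand as well, had a log2 change of 0.93 in BDL (limma adjusted p = 0.281) and the adhesion molecule Vcam1 1.38 (limma adjusted p = 0.0986). Vcam1 stood at 3.11 to 4.07 FPKM in sham, 10.6 to 12.7 in BDL and 4.66, 23.9 and 30.9 in BDL-SenA. Among 11 calprotectin receptors and protease inhibitors, 9 were tested. In BDL 3 were called higher and 3 lower, against 8.12% and 2.84% of all genes tested. Those called higher included Cd36 and Serpinb6a. The 3 lower were Serpina1c, Serpina1d and Serpina1e, copies of the gene of alpha-1-antitrypsin. Whether the products of these copies inhibit neutrophil elastase was not tested. The copies Serpina1a and Serpina1b, chosen after their values were seen, were not called. Their mean FPKM was 1259 and 4012 in sham and 897 and 2462 in BDL. Serpina1e fell by 4.81 on the log2 scale (limma adjusted p = 0.0185), Serpina1c by 1.36 and Serpina1d by 1.27, and because the copies are nearly identical, reads may be split between them.

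Genes shared among leukocytes and markers of macrophages and monocytes moved with the neutrophil genes. Of 17 tested genes shared by neutrophils and other leukocytes, 11 were called higher in BDL, with a median log2 change of 1.46 against 0.15 for all genes tested, among them Coro1a, an actin-binding protein, at 2.15 (limma adjusted p = 0.00816). Of 18 macrophage and monocyte genes 10 were called higher in BDL and 5 in BDL-SenA against sham. The shares of all genes tested that were called higher were 8.12% in BDL and 1.76% in BDL-SenA against sham. The scavenger receptor Marco had a log2 change of 3.76 in BDL (limma adjusted p = 0.00776). Summed over the macrophage list, sham libraries reached 276 to 376 FPKM, BDL libraries 730 to 1271 and BDL-SenA libraries 529 to 1958. Summed over the 10 neutrophil genes, the same groups reached 2.38 to 6.14, 39.0 to 64.2 and 18.2 to 102 FPKM. In both sums BDL-SenA library 1 was the lowest ligated library. Monocytes also transcribe S100a8 and S100a9, and the part of these cells in the result was not tested. Of 11 T, NK, B and plasma cell genes present, 4 were tested. Of these 1, Jchain, was called higher in BDL (log2 change 2.22, limma adjusted p = 0.00996), and 0 were called higher in BDL-SenA against sham. The mean was higher in BDL-SenA than in BDL for 1 of the 11. The 8 eosinophil, basophil and mast cell genes had no tested member and summed to at most 0.514 FPKM in any library.

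The genes whose levels followed S100a9 most closely over the 9 libraries were Anxa2 (Pearson r = 0.989), Orm2 (0.988), Serpinb6a (0.985), 2010003K11Rik (0.985) and Marco (0.984). For Retnlg they were Orm1 (0.991), Timp1 (0.987), Dram1 (0.984), Ccl2 (0.984) and Cyrib (0.982). These are the highest of 9881 genes compared on log2(FPKM + 1), the points share the difference between sham and ligated groups, and the values are a description without a test. Orm1 and Orm2 encode alpha-1-acid glycoproteins, made by the liver in the acute phase, and Marco and Ccl2 belong to macrophages and to the recruitment of monocytes. Members outside the filter on level were not among the genes compared.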

How the data were processed

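Polyadenylated RNA was sequenced from 9 libraries, 3 in each of 3 groups, taken from the sample labels. The authors deposited FPKM per gene. Per the submitters' processing notes the build was GRCm38, and the authors used HISAT2 2.0.5 and featureCounts 1.5.0-p3, and also CASAVA 1.8, fastp and DESeq2 1.20.0, with no roles or settings listed. No source used here says whether counting used strand. FPKM divide by a library's total, so a few abundant genes lower all others.

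Here, log2(FPKM + 1) was tested for 9884 genes whose mean FPKM reached 1, with limma 3.58.1 in R 4.3.3 (all 3 groups, variance trend, two-sided), adjusted by Benjamini-Hochberg over all genes, with calls at 0.05. Single values were compared by exact permutation of libraries. Fold changes on this scale understate changes of low genes. Members outside the filter have no adjusted p in that test. Whole fragments were recovered from ratios between libraries: of 2686 genes of low level above 0 in at least 6 libraries, 99.9% came out whole within 0.01 of a fragment. Their counting intervals are 95% and cover counting error only.

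The members and all gene lists were chosen with earlier results of these data known. Named genes were the 10 members, up to 4 tested genes per list with the smallest p in BDL against sham, and the 5 genes most like S100a9 and Retnlg; any other gene is marked in the text as picked after seeing its values. Alternatives were another pseudocount, other filters, median-ratio and quantile scaling, a fit of 2 groups, a replicate block and leaving out each library. No 2 libraries held identical values. The procedure was tested on simulated data with 200 changed genes among 9884, where it recovered 38% of changes of log2 1 and 85% of log2 2 in BDL against sham, with 5 false calls. In BDL-SenA against BDL it recovered 24% and 91%, with 7 false calls, and in BDL-SenA against sham 44% and 92%, with 10. Every simulated library had the same mean and the same spread for a gene, so these rates differ between comparisons by random draw only. The simulated data held no outlying library and no unequal spread between groups. The rates therefore do not tell how many changes were missed in each real comparison.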

Additional observations from a re-analysis of the deposited data

How the results depend on the processing

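The count of members called higher in BDL against sham was 3. It was 1 without the filter, 5 with a mean FPKM of at least 0.1 and 5 with no filter and a pseudocount of 0.1, a setting chosen after seeing the data, and leaving out each library in turn gave 1 to 3. It was 1 without sham library 3 or BDL library 2. In BDL-SenA against sham the count of 3 became 0 without the filter, 1 with quantile normalization, 0 with only the 2 groups compared and 0 with no filter and a pseudocount of 0.1. Leaving out libraries gave 0 to 3, with 0 without any 1 of the sham libraries or BDL-SenA libraries 2 or 3. S100a9 passed in BDL against sham in 17 of 17 alternatives (adjusted p 0.000124 to 0.0497), S100a8 in 14 and Retnlg in 9. In BDL-SenA against BDL no alternative called a member, and only left-out libraries reversed a direction: log2 differences ranged from -0.16 to 1.07 for S100a8 and from -0.23 to 0.97 for S100a9. The difference in the S100a9 to S100a8 log2 ratio ranged over left-out libraries from -0.57 to -0.021 in BDL-SenA against sham, from -0.31 to 0.18 in BDL-SenA against BDL and from -0.55 to 0.06 in BDL against sham; the cause was not tested. Median-ratio scaling moved the median of all genes in BDL against sham from 0.15 to -0.02 and gave S100a8 a log2 change of 2.87, S100a9 2.65 and Retnlg 1.53. No pairing by replicate number was visible: deviations of the 9 same-numbered pairs correlated at -0.39 to 0.25, with 3 over 0.1. Differently numbered pairs spanned -0.40 to 0.38. With so few libraries this check cannot exclude a pairing, and the labels do not state one. A fit with the replicate number as a block called 3 members higher in each comparison with sham. Depth limits Ly6g, Mpo and Elane, with 8, 52 and 61 fragments over all libraries. For the genes outside the members that were recomputed in BDL against sham, 315 alternative values kept their side of the threshold, 61 lost the call and 15 gained it, and in BDL-SenA against sham these numbers were 176, 101 and 12, with no direction reversed in either.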
